A study of Mus musculus with 6 samples.

Results

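The genes described here are 8 kallikrein-related peptidases (Klk5, Klk6, Klk7, Klk8, Klk10, Klk11, Klk13 and Klk14), their secreted inhibitor Spink5, and St14, which encodes the membrane protease matriptase. They were taken by name as the protease system of the epidermal barrier, by a rule that used no measured value, although earlier results of these data were known when it was set. All 10 were among the 17866 protein-coding genes of the deposited RNA-seq table, and all 10 were among the 13305 genes with enough reads to be tested. The samples were corneal epithelium, separated from the underlying stroma, of C57BL/6 mice aged 6 months, with 3 wild-type (WT) and 3 knockout (KO) samples. The KO samples carry the genotype label Rela-/-. By the study's methods they are Krt14-Cre; Rela f/f mice, in which the Cre that deletes floxed Rela, the gene of an NF-κB subunit, is driven by the keratin 14 promoter. That promoter is also active in the conjunctiva, the meibomian glands and the skin, so the deletion is neither restricted to the cornea nor present in cells that never expressed keratin 14. The labels give the controls as WT without naming a floxed or Cre allele. Each group held 3 independent biological samples, and whether a sample pooled several animals is not given in the sources used here.

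Kallikreins are secreted serine proteases made as inactive precursors. In the epidermis they are stored in lamellar granules, released at the outer layers, and activated in a cascade in which matriptase and Klk5 can act as initiators. Active kallikreins cleave the extracellular proteins of corneodesmosomes, the junctions that hold cornified cells together, and so allow the surface layer to shed. The Kazal-type inhibitor LEKTI, encoded by Spink5, restrains them, and its inherited loss in humans causes Netherton syndrome, a skin disease with excessive shedding. The normal corneal epithelium is stratified like the epidermis but does not cornify.

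Rela, the targeted gene, was first checked against the labels. It averaged 86.4 ± 1.21 CPM across the WT libraries and 14.3 ± 2.71 CPM across the KO libraries (SD, n = 3 each), which left 16.5%. CPM here are estimated counts per 1000000 counts of the library, scaled by the TMM factors. Totals per library lay between 20158404 and 20880347 estimated counts, at which 3 counts correspond to between 0.137 and 0.152 CPM. Corneal epithelial markers were present in every library, but 5 of 5 were lower in KO, with a summed level of 105020 to 112670 TPM (transcripts per 1000000 transcripts, a unit that allows for gene length) in WT and 19336 to 22128 TPM in KO. Epidermal suprabasal markers went the other way (4 of 4 tested higher, 14.01 to 19.87 TPM in WT and 8138 to 16808 TPM in KO), as did conjunctival and goblet markers (5 of 5, 2777 to 3914 and 50957 to 66837 TPM). Stromal markers (3 of 3 tested higher, 0.83 to 2.11 and 10.1 to 18.8 TPM) and immune markers (4 of 4 tested higher, 8.62 to 18.7 and 81.3 to 127 TPM) were also raised. Of the meibomian markers 1 was higher and 1 lower of 3 tested (27.2 to 66.5 TPM in WT and 12.2 to 14.7 TPM in KO), of the vessel markers 1 was higher of 2 (0.73 to 1.00 and 1.04 to 1.55 TPM), and of the melanocyte markers 2 were lower of 3 (7.1 to 8.1 and 3.04 to 3.6 TPM). None of the markers analysed was at 0 in all 6 libraries, while Elovl3 of the meibomian list and Cdh5 and Emcn of the vessel list were not analysed. The part of these marker shifts in the results below was not tested, and in whole tissue RNA a change in the number of cells of a type and a change of RNA per cell cannot be told apart.

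Of the 10 genes, 9 were higher in KO and 1, St14, was lower at an adjusted p under 0.05 (edgeR quasi-likelihood test, Benjamini-Hochberg over all genes tested). Because the corneal transcriptome differed broadly, 31.8% of all tested genes were called higher and 30.2% lower by the same rule, or 62.0% in either direction. At the threshold of the study (adjusted p of 0.001 or less and at least a doubling or halving), the 9 higher genes still passed, against 11.6% of all tested genes that passed as higher, 8.24% that passed as lower and 19.8% in either direction. The WT and KO ranges of CPM did not overlap for any of the 10 genes, which was also so for 68.6% of all tested genes (34.7% with KO above WT and 33.9% with KO below WT). The median log2 fold change was 7.23 over the 10 genes and 8.03 over the 8 kallikreins, against 0.006323 over all tested genes. These counts and medians carry a limit of detection: Klk5, Klk6, Klk7, Klk13 and Klk14 had too few reads in WT to be tested on those libraries alone and passed the count filter only through the KO libraries.

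**Figure D1:**
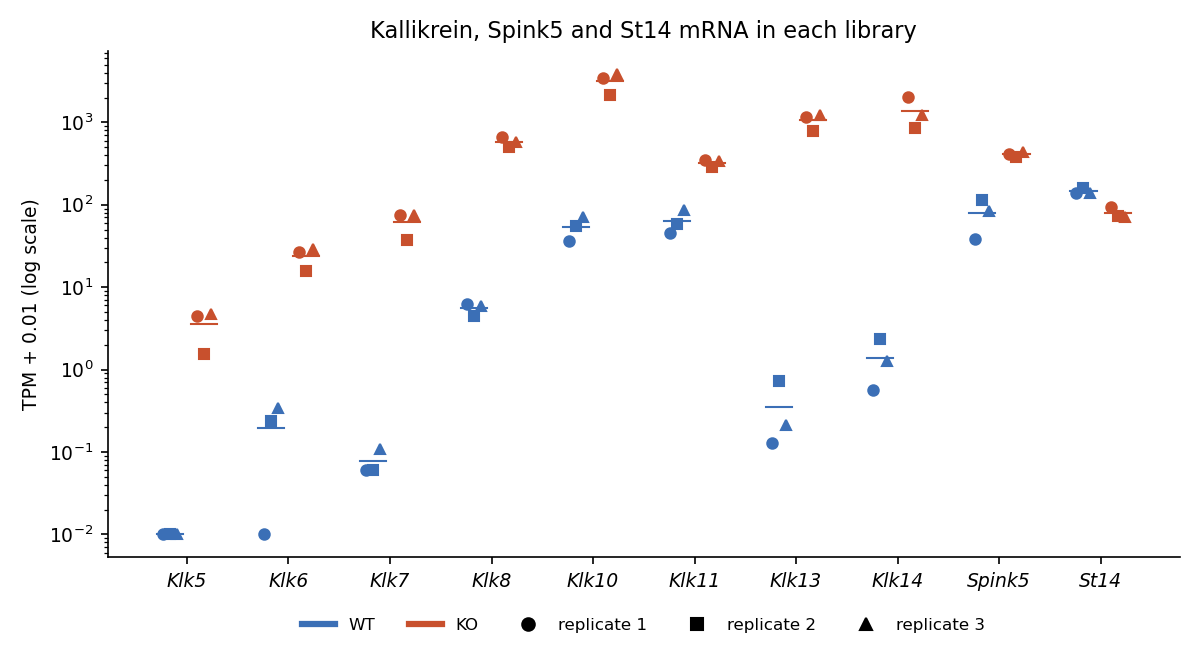
Level of each of the 10 genes in every library, as deposited TPM plus 0.01 on a logarithmic axis, with WT in blue, KO in red, a symbol for each replicate and a line at the group mean. Points at the bottom are libraries listed at 0 TPM, and all 3 KO libraries lie above every WT library for the kallikreins and Spink5 and below for St14.

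Klk5, the trypsin-like protease that can activate itself and other kallikreins, had no read in any WT library. In KO it had 60 counts in replicate 1, 23 in replicate 2 and 70 in replicate 3, or 3.55 ± 1.75 TPM (SD, n = 3). Set against 3 counts per WT library, this was at least 18.3-fold higher in KO (adjusted p = 0.0005019, edgeR). The gene placed at the head of the cascade was thus the least abundant kallikrein of the set in KO. In WT its order against Klk7 (1, 1 and 2 counts) and Klk6 (0, 3 and 4 counts) rests on too few reads.

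Klk7, the chymotrypsin-like protease that cleaves corneodesmosin and desmocollin 1, was nearly undetected in WT, with 1, 1 and 2 counts. In the KO libraries it reached 1605, 804 and 1688 counts, or 74.2, 37.1 and 75.5 TPM. The ratio of summed counts was 1105, with a 95% interval for counting error alone of 431 to 4057. On the log2 scale edgeR fitted a difference of 9.98 with an SE of 0.494 (adjusted p = 1.89e-06).

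Klk14, a trypsin-like protease that acts with Klk5 in epidermal shedding, had 8.25, 30.2 and 16.5 estimated counts in the WT libraries, which became 29431, 12390 and 18373 in the KO libraries. As TPM these were 0.56, 2.33 and 1.26 against 2028, 852 and 1225. The lowest KO library was thus far above the highest WT library, although the KO libraries themselves spread by 2.38-fold. This corresponded to 10.20 on the log2 scale, with an SE of 0.525 (edgeR, adjusted p = 2.15e-06).

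Klk13, another secreted trypsin-like kallikrein of stratified epithelia, had the largest fitted log2 fold change of the 10 genes, an order that is uncertain among genes with few or no WT reads. Only 2, 8 and 4 counts were found in the WT libraries, whereas the KO libraries held 22212, 15279 and 25369. Its level in KO was 1175, 790 and 1218 TPM, from at most 0.71 TPM in WT. The summed counts differed by a ratio of 4843, with a counting interval of 2886 to 8859. This interval overlaps that of Klk7, and Klk5 has only a lower bound. The edgeR estimate was 12.20 ± 0.376 (SE) on the log2 scale, with an adjusted p of 2.64e-07, and 12.82 without WT replicate 2.

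Klk6, known as neurosin for its abundance in the nervous system, was covered by 0, 3 and 4 reads in the WT libraries and by 407, 237 and 450 in the KO libraries, the latter equal to 27.0, 15.8 and 29.4 TPM. It was higher by 7.32 on the log2 scale, with an SE of 0.489 (edgeR, adjusted p = 7.76e-06), and the ratio of summed counts was 168.6 with a counting interval of 81.5 to 420.3. Without WT replicate 3 the fitted value was 7.94. Klk6 therefore rose by a large ratio to a modest level.

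The remaining 3 kallikreins were measurable in normal corneal epithelium. Klk8, or neuropsin, a protease of brain and skin, was at 6.21, 4.50 and 5.84 TPM in WT and at 657, 499 and 571 TPM in KO. On the CPM scale this was a 141-fold increase (7.14 on the log2 scale, SE 0.193, adjusted p = 1.38e-07, edgeR), with the narrowest standard error among the kallikreins. Klk10, first described as a gene of normal epithelial cells that is lost in breast cancer cells, was at 36.3, 54.9 and 70.6 TPM in WT and at 3427, 2163 and 3885 TPM in KO, 73.8-fold higher by CPM (log2 fold change 6.21, SE 0.366, adjusted p = 4.12e-06, edgeR). It was the most abundant of the 10 genes in KO, and its rank among the 17866 genes by mean TPM went from 2770 to 39.

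Klk11, or hippostasin, a trypsin-like protease also found in brain and prostate, rose least of the kallikreins. Its TPM was 45.5, 58.2 and 87.4 in WT and 348, 283 and 342 in KO. The groups were separated by a clear gap, and the change was 6.37-fold by CPM (log2 fold change 2.67, SE 0.249, adjusted p = 4.37e-05, edgeR). Klk11 was the leading kallikrein in WT by mean TPM. Its range overlapped there with that of Klk10, although it was above Klk10 within each WT library. In KO it was only the fifth of the 8.

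Spink5, whose product LEKTI inhibits Klk5, Klk7 and Klk14, was present in every library. It stood at 37.9, 113.8 and 84.8 TPM in WT and at 417, 379 and 433 TPM in KO. WT replicate 1 was the lowest WT library by a wide margin, while the KO libraries lay close together. By CPM the mean went from 173 ± 85.1 to 1129 ± 90.3 (SD, n = 3 each), a 6.54-fold increase (log2 fold change 2.71, SE 0.360, adjusted p = 0.000287, edgeR).

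St14 moved the other way. It encodes matriptase, the type II transmembrane serine protease that activates prostasin and can activate kallikrein precursors. It was at 138, 160 and 138 TPM in WT and at 94.1, 72.2 and 70.8 TPM in KO. Every KO library lay under every WT library, and by CPM the mean fell to 68.8% of WT, from 207 ± 19.3 to 142 ± 23.2 (SD, n = 3 each; log2 fold change −0.54, SE 0.132, adjusted p = 0.00722, edgeR). This was the one gene of the set under the fold change that the study required.

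The order of the genes by mean TPM, a scale that allows for gene length, therefore changed. In WT, St14 was highest, followed by Spink5, Klk11, Klk10 and Klk8, and then by the barely detected Klk14, Klk13, Klk6, Klk7 and Klk5. Neighbours in this order overlapped in their library ranges for Spink5 and Klk11, Klk11 and Klk10, Klk14 and Klk13, Klk13 and Klk6, and Klk6 and Klk7. Klk7 and Klk5 did not overlap, but with 1, 1 and 2 counts against 0 their order is not resolved either. Compared within each library, however, Klk11 was above Klk10 and Klk14 above Klk13 in 3 of 3 WT libraries. In KO the order was Klk10, Klk14, Klk13, Klk8, Spink5, Klk11, St14, Klk7, Klk6 and Klk5, with overlap between Klk14 and Klk13 and between St14 and Klk7. Within each KO library Klk14 was above Klk13 in 3 of 3, although they were nearly equal in replicate 3 (1225 and 1218 TPM). By rank among all genes, St14 went from 947 to 1541 and Spink5 from 1879 to 308. Klk13 went from 12774 to 151 and Klk14 from 11372 to 120.

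The summed TPM of the 8 kallikreins was set against the TPM of Spink5 in each library. The sum includes kallikreins that are not named above as targets of LEKTI. The sum was 88.7, 120.9 and 165.7 TPM in WT and 7742, 4641 and 7349 TPM in KO. Per unit of Spink5 it was 2.34, 1.06 and 1.95 in WT and 18.6, 12.3 and 17.0 in KO, or 1.79 ± 0.656 and 15.9 ± 3.28 (SD, n = 3 each). Spink5 thus rose by a smaller factor than the sum, but by a factor close to that of Klk11, with log2 fold changes of 2.71 and 2.67. Per unit of St14 the sum was 0.866 ± 0.294 in WT and 83.4 ± 19.8 in KO. These are ratios of transcript levels and say nothing of protein or of protease activity.

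The make-up of the summed kallikrein level shifted as well. In WT, Klk11 and Klk10 provided 50.7% and 43.0% of it on average and Klk8 a further 4.75%. In KO, Klk10 remained large at 47.9%, while Klk14 provided 20.4%, Klk13 16.3%, Klk8 9.002% and Klk11 5.09%. The trypsin-like Klk13 and Klk14 had together been a minor share in WT, at 0.281% and 1.11%. Klk5 and Klk7, which are well known from epidermal shedding, provided 0.0513% and 0.928% of the sum in KO.

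**Figure D2:**
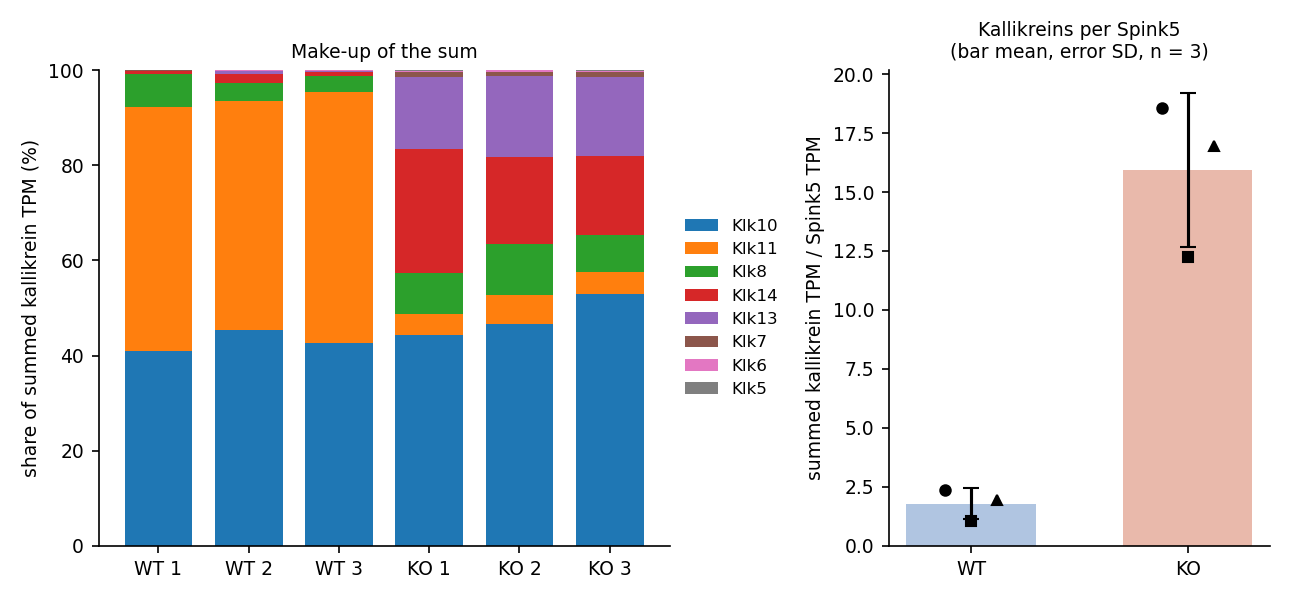
Left, share of each kallikrein in the summed kallikrein TPM of each library (%), and right, summed kallikrein TPM divided by Spink5 TPM, with bars at the mean, error bars of 1 SD and a point per library (n = 3 each). Klk11 and Klk10 fill most of the WT bars and Klk10, Klk14 and Klk13 most of the KO bars, and the ratio is 1.06 to 2.34 in WT and 12.3 to 18.6 in KO.

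All 8 kallikreins lie in the kallikrein cluster on chromosome 7 (GRCm38), where the genes follow each other from Klk14 to Klk5 over 170.3 kb (chr7:43680880-43851181). Spink5 (chr18:43959545-44022487) and St14 (chr9:31088590-31133616) lie elsewhere. Klk12 and Klk9, which lie between the genes named above, were also higher, so that 10 of the 10 adjacent kallikrein genes from Klk14 to Klk5 rose. Over all tested genes, 31.8% were called higher. Like Klk5, Klk6, Klk7, Klk13 and Klk14, the genes Klk12 and Klk9 passed the count filter only through the KO libraries. Klk12 was at a mean of 0.243 TPM in WT and 135 TPM in KO (8.57 on the log2 scale, SE 0.285, adjusted p = 3.23e-07 by edgeR), and Klk9 at 0.687 and 155 TPM (8.12, SE 0.581, adjusted p = 1.10e-05, and 8.87 without WT replicate 3). The next kallikrein on the Klk5 side, Klk4, the enamel protease, had no read in WT and 3, 5 and 5 counts in KO and was not tested, and neither were Klk1b1 and Klk1 beyond it. Of 10 genes flanking the whole row of kallikreins, 5 on each side, 5 had enough reads to be tested. Among those, Siglece (log2 fold change 1.32, adjusted p = 0.00492, edgeR) and 2410002F23Rik (0.60, adjusted p = 0.00295) were higher, and Ctu1, Zfp719 and Clec11a did not pass, with log2 fold changes of −0.30, 0.12 and 0.31. These flanking genes were named after their values were seen.

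**Figure D3:**
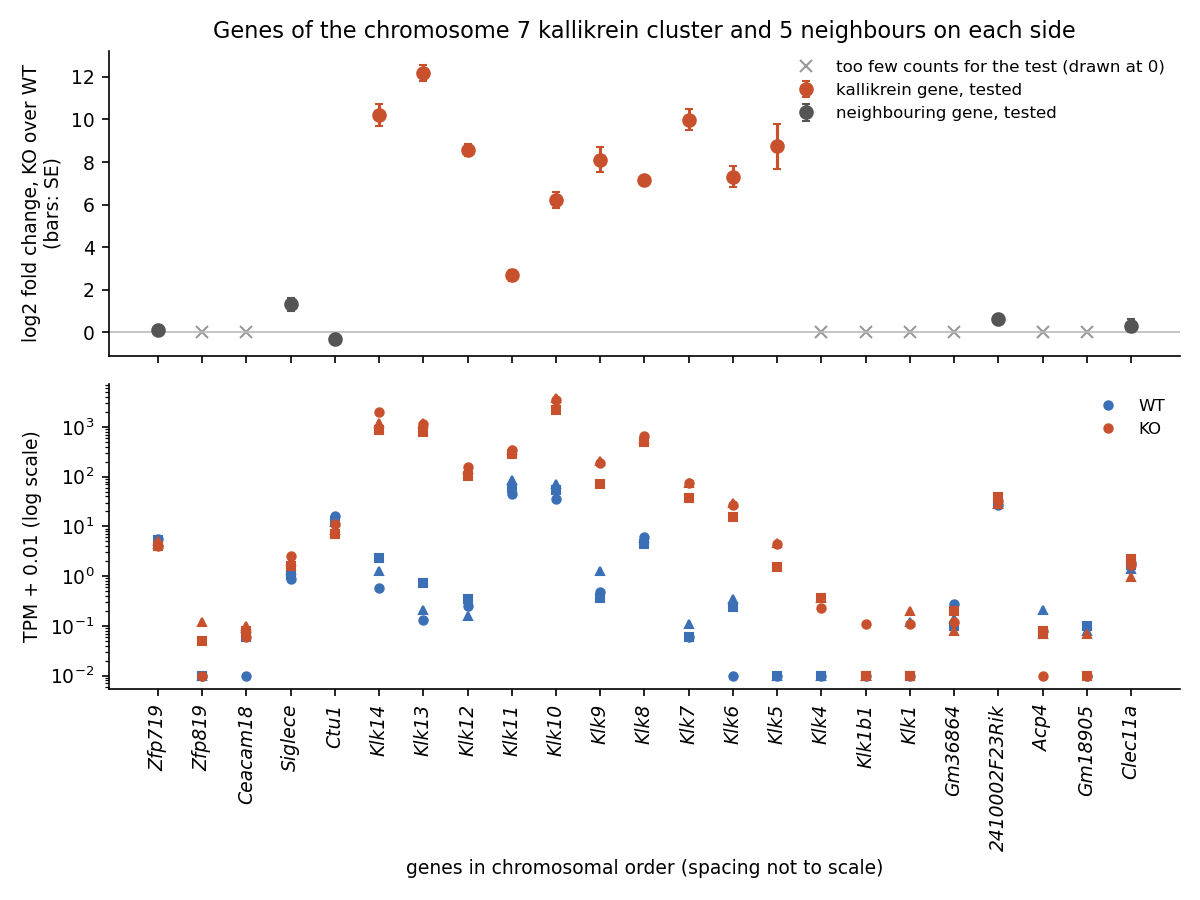
Upper panel, log2 fold change (KO over WT, edgeR, bars SE) of the kallikrein cluster and 5 genes on each side in chromosomal order, with genes that were not tested drawn as crosses at 0, and lower panel, TPM plus 0.01 of the same genes in each library on a logarithmic axis. The tested kallikreins lie between 2.67 and 12.20, whereas the tested flanking genes lie between −0.30 and 1.32.

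Some rows of the cluster share sequence with others. The rows of Klk11 and Klk12 overlap by 88 bases on the same strand, and their counts were not whole numbers, so that reads may have been divided between them. In GENCODE M21 the antisense gene 2310002F09Rik shares 382 exonic bases with Klk8 and 287 with Klk14. The deposited Klk8 row starts at the first base of one of its exons (chr7:43796824-43796908). Strand-specific counting is not stated in the sources used here, and for these 2 genes reads of the antisense transcript could not be told apart from their own.

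To show the sequence next to which these genes start, the 250 bases upstream of each RefSeq transcription start (GRCm38.p6) were searched on both strands for short motifs. Windows were at hand for 8 of the 10 genes, all of them kallikreins, with 10 windows in all, since Klk6 and Klk11 have more than 1 start. The general NF-κB consensus, of interest because Rela encodes an NF-κB subunit, occurred upstream of Klk10 and of the inner start of Klk11, and in 7.25% of all 32851 windows. In Klk10 there were 2 overlapping matches, from base −219 to −210 and from −218 to −209 counted back from the start, and in Klk11 there was 1 from −155 to −146. Both windows are shown with the matches in capitals (plus strand, 5′ to 3′). Klk10 and Klk11 were higher in KO, as were the kallikreins whose windows held no such match. Whether the matches bear on the levels was not tested. The Klk10 window also holds matches to the next motif, left here in lower case.
Klk10 chr7:43780804-43781053: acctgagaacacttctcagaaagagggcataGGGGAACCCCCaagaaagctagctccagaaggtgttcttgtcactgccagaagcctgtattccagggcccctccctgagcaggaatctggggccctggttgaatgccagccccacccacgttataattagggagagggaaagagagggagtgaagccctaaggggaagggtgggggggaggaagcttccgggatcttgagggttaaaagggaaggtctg
Klk11 chr7:43776079-43776328: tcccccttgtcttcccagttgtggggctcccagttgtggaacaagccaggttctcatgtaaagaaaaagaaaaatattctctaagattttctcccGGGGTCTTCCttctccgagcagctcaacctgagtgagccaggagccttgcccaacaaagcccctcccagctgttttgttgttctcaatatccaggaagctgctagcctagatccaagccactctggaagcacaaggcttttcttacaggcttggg

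The letters CCACCC, to which Klf factors of stratified epithelia can bind, or their complement GGGTGG, occurred in 6 of the 10 windows (1 each of Klk5, Klk7, Klk10, Klk11, Klk13 and Klk14) and in 28.1% of all windows. The windows of Klk13 and Klk14, the genes with the largest fitted fold changes, are shown with these letters in capitals. Klk13 had 3 matches and Klk14 had 1.
Klk13 chr7:43712317-43712566: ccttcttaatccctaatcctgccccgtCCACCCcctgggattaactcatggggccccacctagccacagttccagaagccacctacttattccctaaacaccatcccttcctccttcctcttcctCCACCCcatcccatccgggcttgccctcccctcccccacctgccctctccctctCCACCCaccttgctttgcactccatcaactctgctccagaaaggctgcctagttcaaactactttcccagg
Klk14 chr7:43690168-43690417: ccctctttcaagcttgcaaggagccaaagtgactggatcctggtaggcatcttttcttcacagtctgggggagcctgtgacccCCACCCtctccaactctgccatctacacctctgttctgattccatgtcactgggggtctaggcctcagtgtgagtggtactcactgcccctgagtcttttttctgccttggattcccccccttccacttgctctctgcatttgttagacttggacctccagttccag
No member window held the AP-1 letters TGANTCA (6.75% of all windows), the Grhl letters AACCNGTT (1.79%) or the TATA box letters TATAAA (12.4%). A match of letters does not show that a factor binds there, and no match says only that the letters are absent from these 250 bases.

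The kallikreins differed in how far they spread between the KO libraries. KO replicate 2 had the lowest TPM for 8 of 8 kallikreins and for Spink5, and the highest value fell in replicate 3 for 5 kallikreins and in replicate 1 for 3. Among all genes at the study threshold that were higher in KO, replicate 2 was lowest in 39.0%. The coefficient of variation between KO libraries was 49.4% for Klk5, 44.0% for Klk14, 35.0% for Klk7, 30.1% for Klk6, 28.2% for Klk10 and 22.2% for Klk13. It was smaller for Klk8 at 13.7%, Klk11 at 11.1% and Spink5 at 6.83%. The summed epidermal markers were also lowest in KO replicate 2 (16808, 8138 and 10400 TPM in replicates 1 to 3), where Krt1 was at 46.3%, Lor at 52.5% and Flg at 33.7% of their KO means but Krt10 at 91.6%. In replicate 3 Krt1 was at 82.8%, Lor at 63.9%, Flg at 39.0% and Krt10 at 100.3%. Unlike most kallikreins, Krt1, Lor and Flg were thus above their KO means in replicate 1 only. The share of the epidermal markers in the spread of the kallikreins was not tested.

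**Figure D4:**
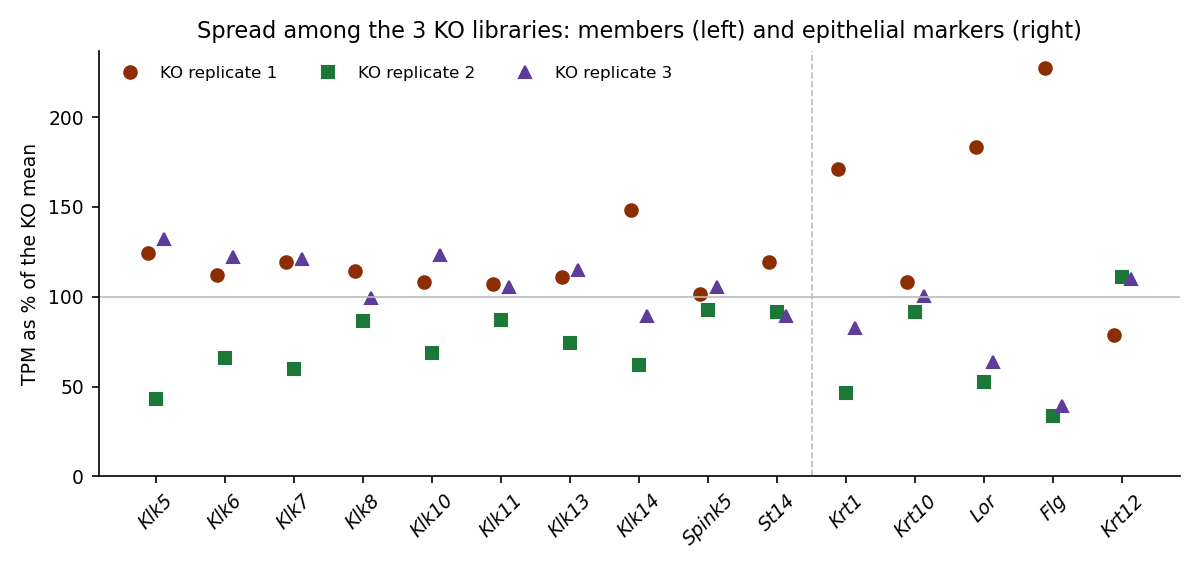
TPM of the 10 genes (left of the dashed line) and of 5 epithelial markers (right) in each of the 3 KO libraries, as a percentage of the KO mean. KO replicate 2 is the lowest point for all 8 kallikreins, from 43.1% for Klk5 to 87.3% for Klk11, and for Spink5 at 92.4%, whereas St14 was lowest in replicate 3 at 89.6%.

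The wider protease network was read from lists of related genes. Of 53 genes on 6 lists, 51 were in the table and 42 were tested, of which 27 were higher, 5 were lower and 10 did not pass. Over all tested genes, 31.8% were higher and 30.2% lower, and the counts on each list are to be read against these shares. Among the higher genes, Klk12, Klk9, Spink2, Wfdc12, Wfdc18 and Tslp passed the count filter only through the KO libraries. The counts of higher genes carry that limit. Wfdc18 and Tslp are named for this reason, and Tslp also to describe its list below. Of the Kazal-type relatives of Spink5, 8 were listed. Of the 3 that were tested, Spink7 (log2 fold change 1.54, adjusted p = 0.0102, edgeR) and Spink2 (1.34, adjusted p = 0.0181) were higher, while Spink13 was at −0.42 (adjusted p = 0.457). The call of Spink7 was lost with a gene length offset (0.40, adjusted p = 0.45), and that of Spink2 in 6 of 15 alternative fits, DESeq2 included, with adjusted p from 0.00572 to 0.277. All 3 were low, with means of 0.607 to 19.1 TPM in KO.

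Of the membrane serine proteases and inhibitors around matriptase, 6 were higher, 3 were lower and 4 did not pass out of 13 tested, a share of calls near the 62.0% of all tested genes. Spint2, which encodes the matriptase inhibitor HAI-2, fell from 946 ± 44.0 to 448 ± 58.5 TPM (SD, n = 3 each). By CPM its mean fell from 549 to 330, with a log2 fold change of −0.73 by edgeR (adjusted p = 0.000856). Tmprss11e, a membrane serine protease of the HAT family, fell most among the genes that passed (−1.27, adjusted p = 0.000257). Tmprss4 rose most among the genes that passed (1.08, adjusted p = 6.47e-05), and the abundant Tmprss11a and Tmprss11d rose by 0.50 and 0.84 (adjusted p = 0.00257 and 0.000649), while Tmprss11g was at −0.07 (adjusted p = 0.685). Prss8, which encodes prostasin, the protease activated by matriptase, was at −0.06 (adjusted p = 0.739), and Spint1, which encodes the matriptase inhibitor HAI-1, at −0.18 (adjusted p = 0.243). These last 2 genes were named for their role after their values were seen.

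Among the other protease inhibitors, 8 of 9 tested were higher and none was lower. Of these 9, 7 passed the count filter in WT alone. Slpi, an inhibitor of neutrophil elastase secreted at mucosal surfaces, went from 2.82 ± 0.544 to 1057 ± 208 TPM (SD, n = 3 each; log2 fold change 8.89, adjusted p = 1.14e-07, edgeR). Wfdc12, another whey acidic protein domain inhibitor, went from 0, 1 and 0 counts in the WT libraries to 732, 1143 and 553 in the KO libraries. The cysteine protease inhibitors Cst3 and Cstb rose by 2.33 and 1.37 on the log2 scale (adjusted p = 4.62e-06 and 4.41e-05), while Wfdc2 was at −0.11 (adjusted p = 0.581). With a gene length offset Cstb rose by 0.60 only, and Wfdc2 was called lower (−0.78, adjusted p = 0.00419). Inhibitors other than Spink5 were therefore among the higher genes too.

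Of the lysosomal and cysteine proteases, 5 were higher, 1 was lower and 3 did not pass out of 9 tested. Ctsz, a lysosomal carboxypeptidase, rose most (log2 fold change 3.66, adjusted p = 7.99e-06, edgeR), from 1.27 to 12.8 TPM, and Ctsd, the aspartic protease cathepsin D, rose by 0.98 (adjusted p = 0.000143). The cytosolic calpain gene Capn1 fell by 1.32 on the log2 scale (adjusted p = 3.89e-05), and the abundant Ctsb and Ctsl were at 0.25 and −0.25 (adjusted p = 0.0775 and 0.171).

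On the list of proteins that kallikreins cleave or signal through, which also held the cytokine gene Tslp, 4 genes were higher and 1 lower of 6 tested. Tslp was among the 4 and is neither a substrate nor a receptor of this kind. Cdsn, encoding corneodesmosin, was at 149, 583 and 138 counts across the WT libraries and at 36054, 12359 and 22012 across the KO libraries. The difference was 6.45 on the log2 scale, with an SE of 0.709 (edgeR, adjusted p = 0.000102), and 7.47 without WT replicate 2, the highest WT library. Dsc1, encoding desmocollin 1, went from 56, 50 and 40 counts to 16570, 13349 and 7229, which edgeR fitted as 8.10 on the log2 scale with an SE of 0.377 (adjusted p = 1.48e-06). Both corneodesmosomal genes were thus far above WT in every KO library, Cdsn with its lowest KO value in replicate 2 and Dsc1 in replicate 3. Of the near-identical desmoglein 1 genes, between which reads may be divided, Dsg1b rose (2.42, adjusted p = 2.43e-06) and Dsg1a was at −0.38 (adjusted p = 0.169). F2rl1, which encodes the receptor PAR2 that Klk5 and Klk14 can cleave, fell from 59.6 ± 10.5 to 29.5 ± 4.14 TPM (SD, n = 3 each). By CPM its mean fell from 75.0 to 47.0 (log2 fold change −0.68, adjusted p = 0.00637, edgeR).

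**Figure D5:**
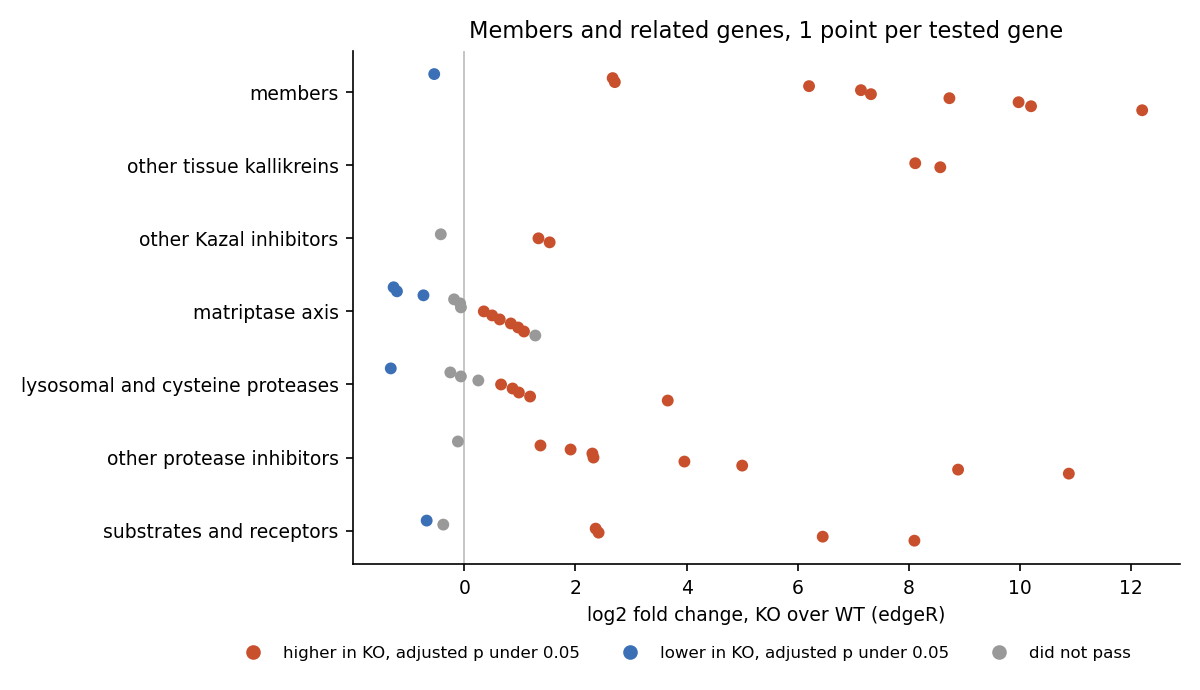
Log2 fold change (KO over WT, edgeR) of the 10 genes and of every tested gene on the 6 related lists, 1 point per gene, coloured by whether the adjusted p was under 0.05 and in which direction. The 10 genes span −0.54 to 12.20, and the matriptase list, with 6 higher and 3 lower genes, has the median closest to 0 among the 6 related lists, at 0.35.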

How the data were processed

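The methods of the study describe rRNA-depleted libraries read from 1 end on a BGI sequencer, but an Illumina kit stands in the labels. The authors filtered reads with SOAPnuke, and the submitters' processing notes name Bowtie2 2.2.5, RSEM 1.2.12 and mm9, although the chromosome accessions of the table are those of GRCm38. The authors deposited RSEM estimated counts (expected counts, in which multi-mapping reads are shared), FPKM (per length and library total) and TPM (per length, summing to 1000000 per library). The deposited means and DESeq2 fold changes and p-values were not used.

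After rounding, the counts were compared in edgeR 4.0.16 under R 4.3.3 (TMM, filterByExpr with a minimum count of 10, glmQLFit, glmQLFTest, genotype only), adjusted over 13305 genes and tested on simulated data. SEs are the absolute log2 fold change over the square root of F. TPM served for levels between genes, and CPM for fold changes. The scales differ where the composition of libraries differs: St14 kept 68.8% of WT by CPM, with means of 145 and 79.1 TPM. Klk11, Klk14 and Spink5 had non-whole counts. The table gives St14 on the plus strand and GENCODE M21 on the minus strand. Within a group, libraries correlated at 0.984 to 0.988.

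The 10 genes and the lists were chosen with earlier results of these data known. Named genes were all 10, Rela, and per related list up to 4 tested genes of highest mean TPM plus the largest called change in each direction, with the exceptions stated. Intervals cover counting error only. Alternatives were other scalings, filters, a length offset, a replicate block, leaving out each library, DESeq2 1.42.0, and limma 3.58.1 on log2(FPKM + 1) or log2(FPKM + 0.1). With 3 against 3, an exact permutation test cannot go below p = 0.1, so none was used. Tmprss11bnl and Camp from the related lists and Elovl3, Cdh5 and Emcn from the marker lists were not analysed here.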

Additional observations from a re-analysis of the deposited data

How the results depend on the processing

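The 16 alternative fits gave 159 values for the 10 genes, all with the direction and call reported. Klk5 was not tested when a mean count of at least 50 was required, which left 8 higher genes and 1 lower. The number at the study threshold fell to 7 without WT replicate 3, without KO replicate 1 or without KO replicate 3, and to 8 without WT replicate 1 or without KO replicate 2. The log2 fold change of St14 ranged from −0.68 to −0.43, with its highest adjusted p of 0.0285 without KO replicate 3. Spink5 ranged from 2.37 to 3.06 and Klk11 from 2.39 to 3.02. The fitted values of genes near 0 in WT depended most on the scale: with limma on log2(FPKM + 1), which understates low genes, Klk6 came to 3.67 and Klk7 to 5.03, against 7.32 and 9.98, and Klk5 also gave its lowest value. Scaling moved the median of all genes to at most −0.0885. Among related genes, Spink7 lost its call with the length offset, Tmprss13 without KO replicate 3 and with both limma fits, and Spink2 kept it in 9 of 15 fits, while 5 genes that had not passed gained a call: Spint1 (lower, both limma fits), Ctsl and Wfdc2 (lower, length offset), Ctsb (higher, without KO replicate 1 and with DESeq2) and Hpn (higher, replicate block, without WT replicate 2, and limma on log2(FPKM + 0.1)). Deviations of same-numbered samples correlated at 0.0345, −0.00998 and 0.0606, and those of unlike-numbered samples at −0.159 to 0.123. With 3 samples per group these values cannot tell whether same-numbered samples shared a batch. With the replicate block 9 genes were higher and 1 lower, with 4149 and 3934 of all genes against 4231 and 4022. The summed kallikrein level per unit of Spink5 stayed between 1.51 and 2.15 in WT and between 14.6 and 17.8 in KO when 1 library was left out. Genes at 0 to 8 counts in WT are limited by depth. The bounds and counting intervals given leave out the spread between samples, so their folds are less certain than these show. For Klk12 and Wfdc12 neither was computed.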
